A study of Mus musculus with 2 samples.

Results

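The array described here compared adipose tissue of mice on a high-fat diet with adipose tissue of mice on a normal diet. Both pools were hybridised together to 1 Agilent array with 2 channels: Cy3 (green) labelled the normal-diet RNA and Cy5 (red) the high-fat RNA. A probe was kept when the scanner software marked it as well above background in both channels and it was no control. This held for 23189 of 39429 probes (58.8%), which named 14315 of the 20886 genes on the array. A further 4185 probes passed only with the high-fat RNA and 520 only with the normal-diet RNA.

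The animals were male wild-type C57BL/6J mice fed a normal or a high-fat diet for 4 weeks before sampling. RNA of 10 adipose tissues and of 10 livers was combined by diet, and each tissue was hybridised once. The fat depot, the number of animals per pool and the fat content of the diet are not given in the sources used here. With 1 array and no dye swap neither a spread between animals nor a p-value exists, and the dye and the diet cannot be told apart for a single probe.

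Every ratio below is log2 of the high-fat over the normal-diet pool, so 1 is 2-fold higher and -1 is 2-fold lower. A gene was called higher or lower from 2-fold upwards, a rule of size and not a test. Levels are normalized log2 signals, given with the normal-diet channel first, and are compared only for the same gene between channels or arrays. The precision that can be had is that of the measurement on this array. For 279 probes spotted repeatedly (mostly 10 times) the median SD over spots was 0.05, and the median range between probes of a gene was 0.23 over 3383 genes. The scanner software's own error of a gene's ratio had a median of 0.21. Spots had a median signal of 97 (green) and 274 (red), over local backgrounds of 28 and 52.5.

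White adipose tissue stores fatty acids as triglyceride in large lipid droplets and releases them by lipolysis under adrenergic control and against insulin. Adipocytes also secrete hormones, among them leptin, which reports the size of the fat store to the brain, and adiponectin, which promotes insulin sensitivity. When a high-fat diet expands the depot, adipocytes enlarge, matrix is remodelled and immune cells can move in. Visceral depots of male mice lie against other organs: mesenteric fat along the gut and beside the pancreas, and epididymal fat along the epididymis and testis.

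Among the 14315 genes, 605 (4.23%) reached 2-fold or more in favour of the high-fat pool and 735 (5.13%) in favour of the normal-diet pool, together 9.36%. Of these, 218 and 309 were at least 4-fold apart. The shares of 4.23% and 5.13% are the background for every count of called genes on a list below, also where they are not repeated. Ratios of the middle part of the distribution were small, with 25th and 75th percentiles of -0.26 and 0.24 and a median of -0.01. Genes at least 2-fold higher made up 45.1% of the called genes after loess. With median centring alone this share was 87.2%, and the median over all genes stood at 0.69. Relative to that median none of the 1340 called genes turned direction, while 14 did when 0 was taken as the reference. On the liver array, processed in the same way, 0.491% of 13640 genes were higher and 0.579% lower. The arrays had a slide and a scan each, so tissue and batch cannot be told apart.

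The label was checked against genes of mature adipocytes, all 29 of which were measured. In the normal-diet channels 24 of the 29 were at least 1 log2 unit brighter on the adipose array than on the liver array and 1 was dimmer by as much, with a median difference of 4.23 in favour of adipose tissue. Adipoq, which encodes adiponectin, stood at 16.74 on the adipose and 7.03 on the liver array. Plin1, the perilipin that coats the adipocyte lipid droplet, stood at 14.62 and 6.28. Over the 29 genes the median level was 14.6 in the normal-diet and 14.5 in the high-fat channel.

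Genes of other organs were far apart between the pools and took up many of the largest ratios. Of 244 measured genes on 22 lists of other organs, 68 were called higher and 77 lower, 59.4% against 9.36% over all genes. Small-intestinal genes were higher in the high-fat pool, and genes of liver, exocrine pancreas, sperm, epididymis and skeletal muscle were higher in the normal-diet pool. In a tissue pool, fewer cells of a type and less RNA per cell cannot be told apart. The part of these organs in any other ratio was not tested, and their values are given beside the genes concerned.

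**Figure D1:**
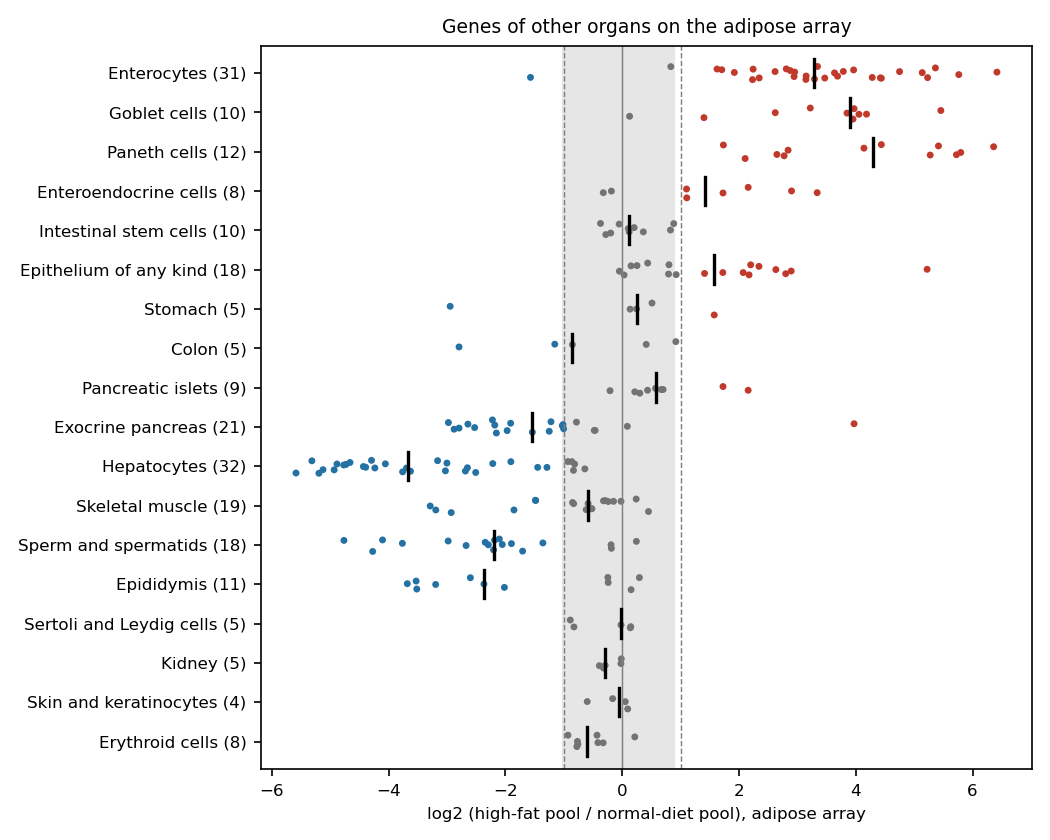
Log2 ratio of high-fat over normal-diet pool (x axis) for each measured gene (points) of 18 lists of other organs, with the number of genes in brackets. Black bars are list medians, red and blue mark genes at least 2-fold higher or lower, dashed lines mark 2-fold, and the grey band spans the 5th to 95th percentile of all measured genes. Enterocyte, goblet and Paneth genes lie to the right (medians 3.29, 3.90 and 4.29), and hepatocyte, sperm and epididymis genes to the left (-3.66, -2.19 and -2.37).

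Absorptive enterocytes line the small-intestinal villus and take up digested nutrients. Of their 31 measured genes 29 were at least 2-fold higher in the high-fat pool and 1 lower, with a median level of 8.97 in the normal-diet and 12.1 in the high-fat channel. Cdx2, a transcription factor of intestinal identity, stood at 7.28 and 11.24, a ratio of 3.96. Sis, the disaccharidase sucrase-isomaltase, stood at 8.30 and 14.07, a ratio of 5.76. Fabp2, the intestinal fatty acid binding protein, had the highest ratio of the array, 6.42, with levels of 11.29 and 17.71. The exception was Fabp1, a fatty acid binding protein of liver as well as gut, which stood at 13.61 and 12.03, a ratio of -1.57. The 2 members seen in the high-fat channel alone, the peptide transporter Slc15a1 and the retinol carrier Rbp2, were at least 7.85-fold and 3.91-fold higher.

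Other secretory and dividing cells of the gut were uneven. Goblet cells, which make mucus, had 9 of 10 genes higher, and Paneth cells, which release antimicrobial peptides at the base of the crypt, had 12 of 12. The log2 summed level of the Paneth list was 15.2 in the normal-diet and 19.6 in the high-fat channel. Enteroendocrine genes were higher in 6 of 8, led by secretin (Sct, 3.34), neurotensin (Nts, 2.90), Chga (2.16) and Chgb (1.73). None of 10 crypt stem cell genes was called (median 0.11), Lgr5 among them at 0.36, and none of 5 tuft cell genes (median 0.21). General epithelial genes were higher in 10 of 18, with Krt20 at 5.22, Cldn7 at 2.89, Epcam at 2.80 and Krt8 at 2.63. Of the stomach list, Lipf (1.58) was higher and Tff2 (-2.95) lower, and Gkn2, Atp4a, Cblif and Ctse were below background. The colon list had 2 of 5 genes lower, Sycn at -2.79 and Aqp8 at -1.16, of which Sycn is also an exocrine pancreas gene and Aqp8 was brighter in liver (13.17 against 7.81). Slc26a3 and Muc4 of the same list, which passed the background limit only with the high-fat RNA, went the other way, with log2 bounds of 1.93 and 1.81.

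Hepatocyte genes were lower in the high-fat pool throughout: 27 of 32 were at least 2-fold lower and all 32 below 0. Alb, which encodes serum albumin, stood at 14.80 in the normal-diet and 11.18 in the high-fat channel, against 17.52 in the normal-diet channel of the liver array. Fgb, the fibrinogen beta chain, stood at 12.53 and 8.24, a ratio of -4.29. Cyp3a11, a drug-metabolizing cytochrome, had probes at -5.03 and -2.49. The hepatocyte genes were a median of 4.58 dimmer than on the liver array in the normal-diet channels and 8.38 dimmer in the high-fat channels. On the liver array the ratio of Alb was 0.71 and that of Fgb -0.02. The median level of the list was 11.7 with normal diet and 7.67 with high fat.

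HNF1 factors act in both liver and gut, and promoters were searched for the half-site they recognise. The letters GTTAAT, on either strand within 250 bases upstream of the start, were found in 6 of 25 hepatocyte promoters (24.0%) and 5 of 26 enterocyte promoters (19.2%). They were found in 5.55% of the promoters of all 11355 measured genes that have one and in 7.49% of 27025 mouse promoters. Alb and Fgb are shown because their match lies close to the start of transcription in genes that were far lower. The 120 bases upstream of each start are from RefSeq (GRCm38.p6), with the half-site in capitals: Alb at chr5:90460750-90460869 on the plus strand and Fgb at chr3:83049864-83049983 on the minus strand.
Alb: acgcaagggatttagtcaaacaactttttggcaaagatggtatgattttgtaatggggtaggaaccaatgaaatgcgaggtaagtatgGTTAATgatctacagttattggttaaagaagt
Fgb: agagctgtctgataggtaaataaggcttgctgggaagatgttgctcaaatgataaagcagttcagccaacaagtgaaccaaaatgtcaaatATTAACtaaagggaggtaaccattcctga
The match is a description of the letters, and binding was not measured here.

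Genes much brighter in liver, hepatocyte list members among them, were also more often lower than higher. The 289 genes at least 4 log2 units brighter on the liver array had a median ratio of -1.01. Of these, 50.5% were at least 2-fold lower and 9.34% at least 2-fold higher, among the latter Apoa4 (3.15) and Apob (1.62) of the enterocyte list. Among the 4608 genes 0 to 1 log2 unit brighter in liver, 0.477% were lower and 1.54% higher. At the other end, of 282 genes over 4 log2 units brighter on the adipose array 26.2% were lower and 13.5% higher.

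**Figure D2:**
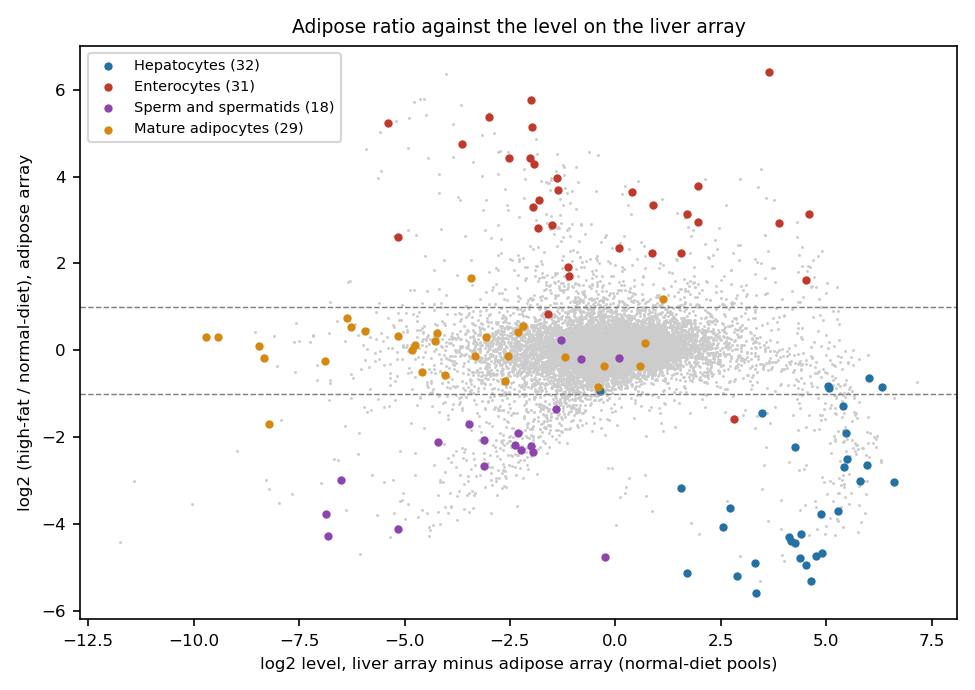
Log2 ratio of high-fat over normal-diet pool on the adipose array (y axis) against the log2 level on the liver array minus that on the adipose array in the normal-diet channels (x axis), for all measured genes (grey) and 4 lists. Hepatocyte genes lie at the lower right and enterocyte genes mostly above the upper dashed 2-fold line, while 26 of 29 adipocyte genes stay between the dashed lines.

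Exocrine pancreas genes were lower in 16 of 21 (median -1.54). The trypsinogens Try4 (-2.98) and Try5 (-2.88), the zymogen granule protein Sycn and pancreatic lipase (Pnlip, -2.64) were the lowest, and Zg16 (3.97), which is also a goblet cell gene, was higher. The log2 summed level of this list was 15.1 with normal diet and 16.4 with high fat, opposite in sign to its median, and Zg16 alone stood at 16.24 in the high-fat channel. The islet list was split from these, since the insulin genes Ins1 and Ins2 were at 0.67 and 0.57 and Pdx1, Ppy and Ucn3 were below background in both channels. Its called members, Chga and Chgb, are shared with the enteroendocrine list.

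Male germ cell genes were lower in 15 of 18. Tnp2, a transition protein that replaces histones in spermatids, stood at 13.68 and 9.41, a ratio of -4.27, and Prm2, the protamine that follows it, at 14.97 and 11.20. Tex22 (-4.77) and Tssk6 (-4.11) were also among the lowest. Summed over the sperm list, the log2 level was 16.3 with normal diet and 13.0 with high fat, and 16.8 and 13.5 over the epididymis list. Genes of earlier spermatocytes were mostly below background in both channels, 9 of 15, and the Sertoli cell genes Amh and Fshr and the Leydig cell genes Hsd17b3 and Lhcgr were too. The epididymis list had 7 of 11 lower, led by Spink11 (-3.68), Spink8 (-3.53), Defb42 (-3.52) and Crisp1 (-3.19), secreted proteins of the duct. Lcn8, Lcn9, Gpx5 and Rnase9, genes of its first segments, were below background. Akr1b7, an aldose reductase on the adrenal cortex list that is also made in the vas deferens, stood at 18.63 and 15.63, 7.99-fold lower. On the liver array it stood at 7.22, and which cells of the adipose pools carried it was not tested. The adrenal enzymes Cyp11b1 and Cyp11b2 were below background, and Cyp21a1 was at 0.12.

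Skeletal muscle genes were lower in 6 of 19, against 5.13% of all genes. The 6 were genes of the contractile apparatus and its energy supply: Tnnc2 (-3.29), Myh4 (-3.19), Mybpc1 (-2.93), Ckm (-1.85), Tnni2 (-1.49) and Tnnt3 (-1.48). Tnni2, Tnnt3 and other list members beyond the 4 farthest from 0, were chosen after their values were seen. On the liver array 16 of 26 measured genes of this list were lower, with a median of -1.10, among them Tnnc2 (-1.48), Myh4 (-1.60), Tnni2 (-1.59) and Tnnt3 (-1.47). Acta1 (-0.24) and Mb (-0.15) lay between the pools' 2-fold limits. Kidney and skin lists had no called gene among 5 and 4 measured, and red cell genes none among 8, with a median of -0.60.

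Adipocyte identity genes were close between the pools after loess. Of 29 genes, 2 were higher and 1 lower by 2-fold or more, against 4.23% and 5.13% called over the array. Their median was 0.12, against -0.01 over all genes. With median centring the list stood at 0.58 relative to all genes. The secreted adipokine and fat-mass lists then stood at 0.57 and 0.68. Lep, which encodes leptin, stood at 9.53 (normal diet) and 11.19 (high fat), a ratio of 1.66 with an SD of 0.06 over 10 spots of its probe. Gpd1, the glycerol-3-phosphate dehydrogenase that makes the backbone of triglyceride, stood at 14.56 and 15.74, a ratio of 1.18. Cfd, which encodes adipsin, a complement protease secreted by adipocytes, stood at 18.73 and 17.03, a ratio of -1.70.

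The remaining 26 adipocyte genes lay between -0.85 and 0.73. The fatty acid binding protein Fabp4 was at 0.73, lipoprotein lipase (Lpl) at 0.54 with its 2 probes at -0.15 and 1.23, Cidec, which fuses lipid droplets, at 0.33, and Adipoq and Retn at 0.31 each. The insulin-responsive glucose transporter Slc2a4 was at 0.21 and the fatty acid receptor Cd36 at 0.12. On the other side stood the master regulators of adipocyte differentiation, Pparg at -0.57 and Cebpa at -0.85, with Cidea at -0.72, the beta-3 adrenergic receptor Adrb3 at -0.49 and Pck1 at -0.37. Lipe and Pnpla2, the lipases of stored fat, were at 0.01 and -0.13. Other members were Lgals12 (0.55), Trarg1 (0.45), Car3 (0.43), Plin4 (0.40), Aqp7 (0.30), Acsl1 (0.16), Sncg (0.11), Pde3b (-0.13), Nrip1 (-0.14), Plin1 (-0.18), Acvr1c (-0.25) and Mgst1 (-0.36).

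**Figure D3:**
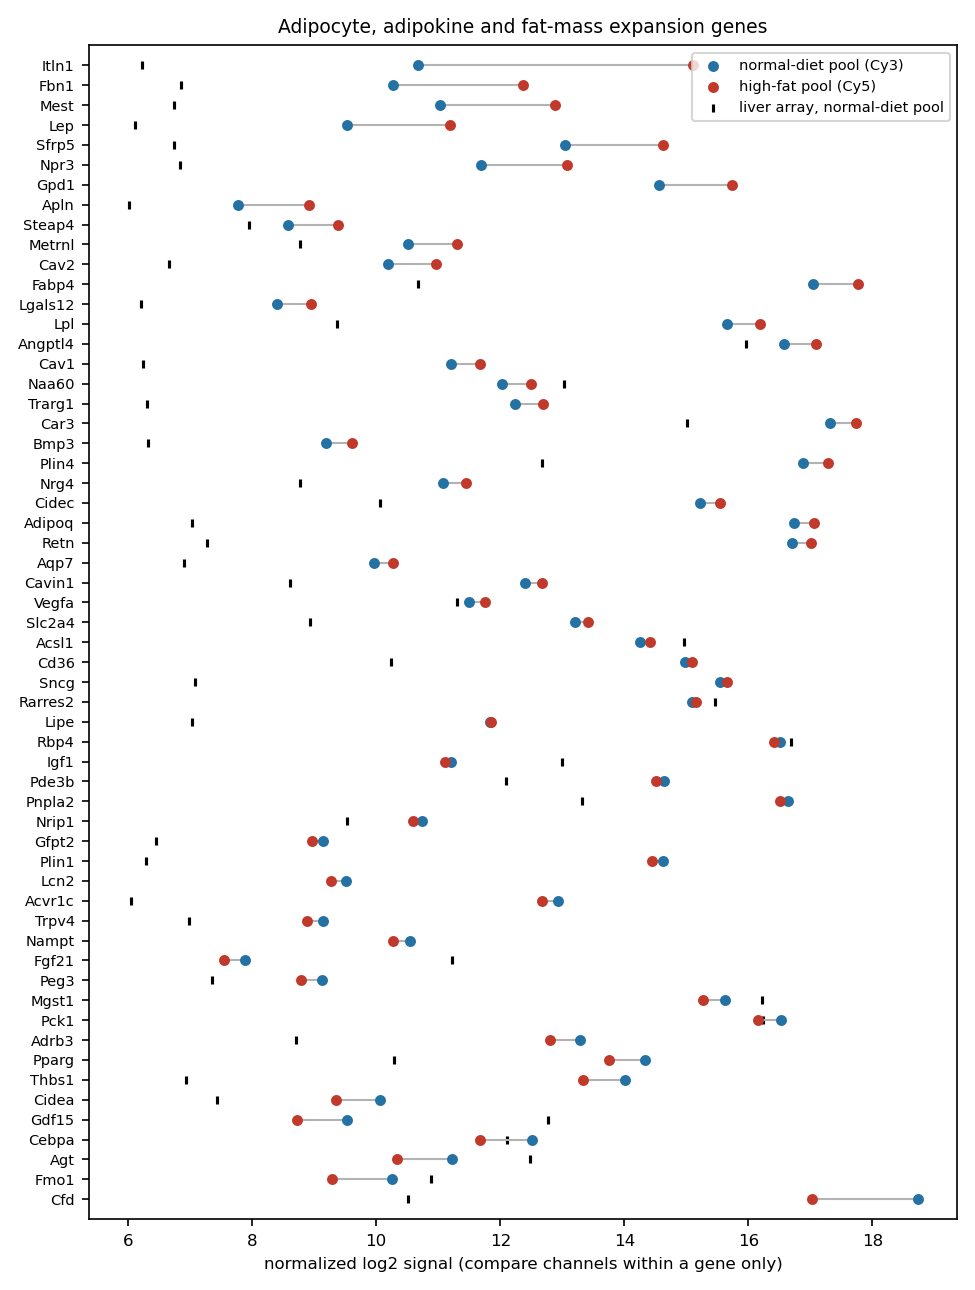
Normalized log2 signal (x axis) of the adipocyte, adipokine and fat-mass expansion genes described in the text (rows, ordered by ratio) in the green channel of normal-diet RNA (blue) and the red channel of high-fat RNA (red) of the adipose array, with the normal-diet channel of the liver array as a black tick. Levels are comparable within a row and not between rows. Lep stands at 9.53 and 11.19 and Cfd at 18.73 and 17.03, while Adipoq (ratio 0.31) and Plin1 (-0.18) lie close together in both channels, far above liver.

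Secreted factors of fat were higher in 5 of 21 and lower in 1, against 4.23% and 5.13% of all genes. Itln1 (omentin in humans) stood at 10.67 and 15.11, a ratio of 4.44, but it is also a Paneth cell gene in the mouse and that list had a median of 4.29. Fbn1, whose product fibrillin carries the hormone asprosin at its end, stood at 10.27 and 12.36, a ratio of 2.09. Sfrp5, a secreted Wnt antagonist of adipocytes, stood at 13.04 and 14.63 (1.59), and Apln, the apelin precursor, at 7.77 and 8.92 (1.15). Lep was the fifth, and Cfd the 1 lower gene. Metrnl was at 0.79, Angptl4 at 0.52, Nrg4 at 0.36, Vegfa at 0.25 and Rarres2 (chemerin) at 0.06. Rbp4 was at -0.09, Igf1 at -0.10, Lcn2 at -0.25, Nampt at -0.27, Fgf21 at -0.33, Gdf15 at -0.80 and Agt at -0.88. Spx was seen in the high-fat channel alone, at a bound of 1.04-fold.

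Of genes known to track the growth of fat mass, 3 of 14 were higher and none lower, against 4.23% and 5.13% of all genes. Their median was 0.44. Mest, an imprinted gene whose level in fat marks expanding depots, stood at 11.03 and 12.89, a ratio of 1.86. Its 3 probes lay between 1.81 and 1.91, and one of them had an SD of 0.03 over 10 spots. Npr3, the clearance receptor for natriuretic peptides, stood at 11.69 and 13.08 (1.40), and Sfrp5 was the third. Steap4 (0.81), Cav2 (0.77), Cav1 (0.48), Naa60 (0.46), Bmp3 (0.42) and Cavin1 (0.28) lay above 0, and Gfpt2 (-0.17), Trpv4 (-0.27), Peg3 (-0.34), Thbs1 (-0.68) and Fmo1 (-0.96) below it.

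Of 26 genes of fatty acid synthesis, 2 were higher (Elovl7, 2.12, and fatty acid synthase, Fasn, 1.16) and 3 lower (Elovl3, -2.52, Acacb, -1.11, and Fads1, just past the rule), with a median of 0.33. Over all genes 4.23% were higher and 5.13% lower. Outside genes of other organs and those brighter in liver, 2 of 18 were higher and 1 lower. Here and below this filter removes only listed genes of other organs and genes at least 1 log2 unit brighter in liver. Unlisted genes of those organs pass it. Fasn stood at 10.36 and 11.52. Elovl3, an elongase of liver and brown fat, stood at 8.36 and 5.85 and was also lower on the liver array, at -1.39. Stearoyl-CoA desaturase 1 (Scd1, 0.20), Acly (-0.15), Acaca (-0.19) and the lipogenic regulators Srebf1 (0.34) and Mlxipl (0.66) were not called.

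Triglyceride synthesis had 6 of 26 genes higher and 1 lower, with a median of 0.17, against 4.23% and 5.13% of all genes. Outside genes of other organs and those brighter in liver, 2 of 16 were higher and 1 lower, with a median of -0.09. Dgat2, which adds the last fatty acid, stood at 14.22 and 16.11, a ratio of 1.89, and Dgat1, the other enzyme of this step and on the enterocyte list, was at 0.83. Acsl5 (1.58), Gk (1.31), Lpin3 (1.20) and Gpd1 followed. Mogat2 (4.42), the monoacylglycerol acyltransferase of the intestine, is on the enterocyte list too, whose median was 3.29, and whether gut RNA also carried part of the Dgat2 and Acsl5 ratios was not tested. Acsl4, an arachidonate-preferring acyl-CoA synthetase, stood at 12.64 and 11.30 (-1.33). Lipolysis genes had a median of 0.01 over 27, with Npr3 higher and 2 genes lower, among them Ces1f (-1.21). The droplet proteins had 1 of 20 called, Cideb at 1.45, with Hilpda at 0.95, Plin2 at 0.16 and Plin1 at -0.18.

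Genes of fatty acid oxidation were near 0, with a median of -0.05 over 31. The 3 lower genes, Cyp4a14 (-5.32), Cyp4a10 (-3.14) and Acot1 (-1.04), are strongly expressed in liver, and their part from hepatocyte RNA (list median -3.66) was not tested. Cpt1a, the gate of mitochondrial import, was at 0.32, and Acadm at 0.00. Brown-fat genes had 2 of 22 higher (Cox7a1, 1.80, and Gk) and 4 lower (Slc27a2, -2.58, Elovl3, Fabp3, -1.48, and Ebf2, -1.06), against 4.23% and 5.13% of all genes. Of these, 1 lower gene remained among the 11 on no organ list and not brighter in liver. Ucp1, the uncoupling protein that defines brown fat, was below background in both channels. Ppargc1a was at 0.13 and Prdm16 at -0.17.

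Insulin signalling genes had none of 28 higher and 1 lower, with 21 below 0 and a median of -0.26. Pdk4, which blocks glucose oxidation, was at -1.08, Grb10 at -0.94 and Foxo1 at -0.59. Insr was at -0.31, Irs1 at -0.50, Irs2 at -0.30 and Akt2 at -0.44. Each is smaller than 2-fold and only Pdk4 was called, which turned to 0.01 with median centring. The list median then stood at -0.04 relative to that of all genes. Glucocorticoid target genes were lower in 5 of 20, against 5.13% of all genes, with none higher and a median of -0.61. Outside genes of other organs and those brighter in liver, 3 of 15 were lower with a median of -0.31, and with median centring the list stood at -0.23 relative to all genes. On the liver array 5 of 20 were lower too, with a median of -0.37. Mfsd2a, a lipid transporter, was at -2.23, Fkbp5, a chaperone of the receptor, at -1.44, Zbtb16 at -1.41 (-2.73 in liver) and Gadd45g at -1.09. Mfsd2a is brighter in liver (13.62) than in fat (10.05), while Fkbp5 stood at 13.01 and 11.57 with a liver ratio of -0.16. Tsc22d3 (-0.93), Klf9 (-0.91) and Per1 (-0.76) lay on the same side without being called.

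Sterol synthesis genes had 2 of 24 higher, against 4.23% of all genes, among them Stard4 (1.78), a cholesterol carrier, and a median of 0.36. Outside genes of other organs and those brighter in liver, none of 13 was called and the median was 0.29. Sqle was at 0.87 and Hmgcs1 at 0.37. Of 15 sterol export and oxysterol receptor genes only Abcg5 was called (3.46), a sterol pump of gut and liver, with Abcg1 at -0.74 and Abca1 at -0.28. Genes of antioxidant defence were called in both directions, with Gpx2 (3.46), a peroxidase of gut epithelium, Abcc2 (1.33) and Srxn1 (1.23) higher and Gpx3 (-1.75), the secreted peroxidase, and Gsta3 (-1.22) lower.

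**Figure D4:**
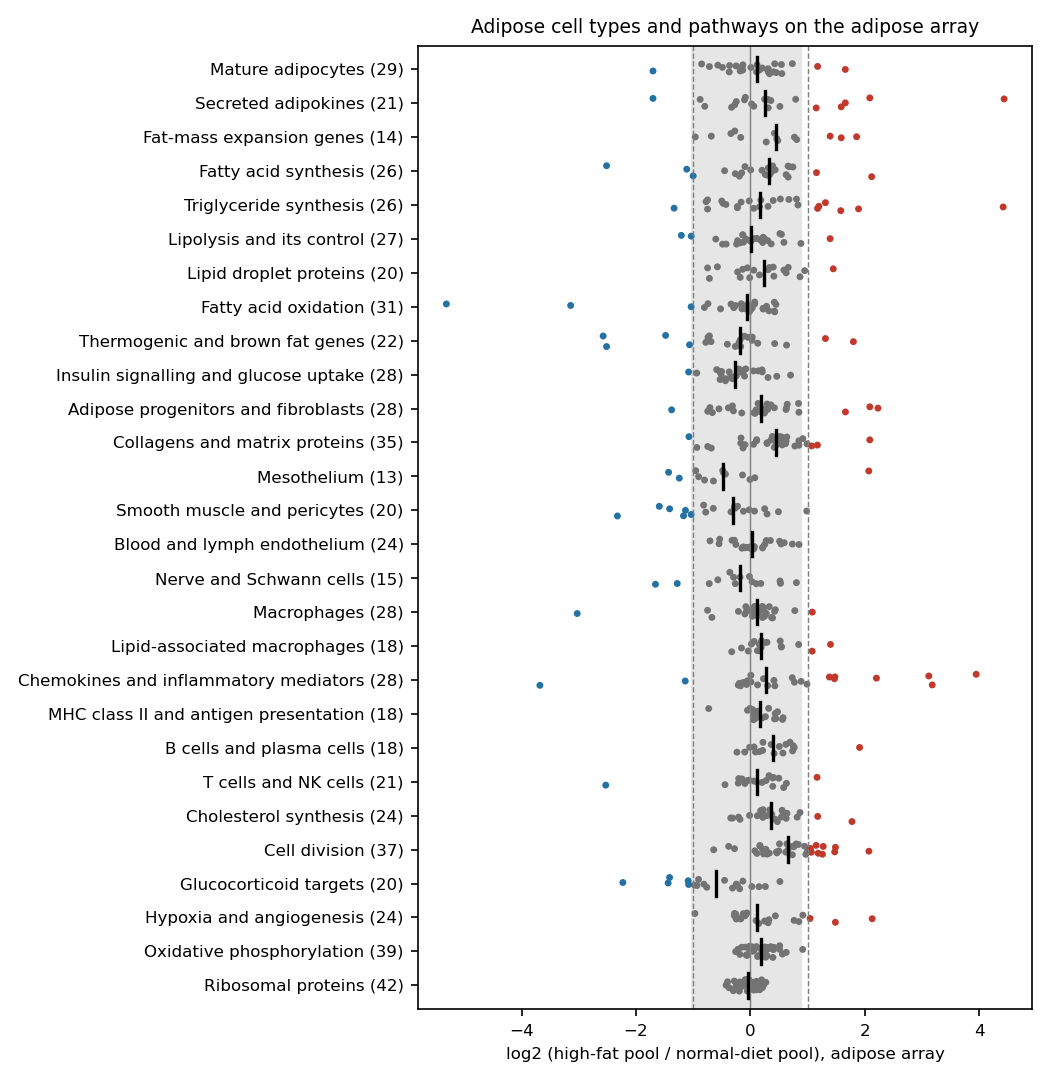
Log2 ratio of high-fat over normal-diet pool (x axis) for each measured gene (points) of 28 lists of adipose cell types and pathways, with the number of genes in brackets. Black bars are list medians, red and blue mark genes at least 2-fold higher or lower, dashed lines mark 2-fold, and the grey band spans the 5th to 95th percentile of all measured genes. Most medians lie between -0.3 and 0.5. Cell division (0.66) lies highest and glucocorticoid targets (-0.61) lowest among the lists drawn.

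Of 35 collagen and matrix genes 3 were at least 2-fold higher and 1 lower, against 4.23% and 5.13% of all genes, and 27 were above 0, with a median of 0.45. Fbn1 (2.09), Col6a3 (1.17), which also gives rise to the peptide endotrophin, and Sparc (1.07, probes at 0.72 and 1.43) were higher. Col4a1 of the basement membrane stood just inside the rule at 0.99 with an SD of 0.02 over 10 spots, Col3a1 was at 0.85 and Col1a1 at 0.42. The small proteoglycans went the other way, with Bgn at -1.07 and Dcn at -0.75. Fibroblast and progenitor genes had 3 of 28 higher and 1 lower, with a median of 0.18. Dpp4 (2.23) marks interstitial progenitors but is an enterocyte gene too, Sfrp4, a Wnt antagonist, was at 1.66 and Clec3b at -1.38. Pdgfra, the general progenitor receptor, was at -0.30 and Pi16 at 0.06.

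Smooth muscle and pericyte genes were lower in 6 of 20 with none higher, against 5.13% lower and 4.23% higher over all genes. Cnn1, which encodes calponin 1, stood at 16.01 and 13.68 (-2.33), Actg2, the enteric actin, at 14.87 and 13.28 (-1.59), and Tagln at 16.16 and 14.74 (-1.41). Des followed at -1.17 with an SD of 0.04 over 10 spots, then Myh11 at -1.14 and Mylk at -1.04. Over the whole list, which holds pericyte genes too, 15 of 20 were below 0 and the median was -0.31. Among the 5 above 0 were Rgs5 (0.99), Kcnj8 (0.49) and Cspg4 (0.07). Endothelial genes had no called member among 24 (median 0.03, Pecam1 at 0.35). Of nerve and Schwann cell genes 2 of 15 were lower, among them Prx (-1.66), while Mbp was at -0.18. Mesothelial genes had a median of -0.48, with 11 of 13 below 0. Lrrn4 (-1.43) and Wt1 (-1.24) were lower, and Krt19 (2.07), a keratin that gut epithelium shares, was higher. The smooth muscle, mesothelium and duct genes that were lower lay in the same pool as the sperm and epididymis genes, whose list medians were -2.19 and -2.37, and the part of that tissue was not tested.

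Immune cell genes were 2-fold apart in a few members, against 4.23% higher and 5.13% lower over all genes. Of 28 macrophage genes 1 was higher, the protease Ctss (1.08, at 13.06 and 14.14), and 1 lower, Arg1 (-3.03), a urea cycle enzyme of hepatocytes that is on that list too. Adgre1, which encodes F4/80, was at 0.44, Itgam at 0.39, Mrc1 at 0.19 and Csf1r at 0.04. Cd68 has no probe. Lipid-associated macrophages, which gather around dying adipocytes, had 2 of 18 higher, Fabp5 (1.40) and Lgals3 (1.08). Enterocyte genes, with a list median of 3.29, were higher in the same pool, and their part in these ratios was not tested. Itgax, the CD11c of crown-like structures, was at 0.84, Trem2 at 0.19 and Gpnmb at 0.07.

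Inflammatory mediators had 7 of 28 higher and 2 lower, against 4.23% and 5.13% of all genes, with a median of 0.27. Outside genes of other organs and those brighter in liver, 4 of 23 were higher and 2 lower, with a median of 0.01. The enterocyte, goblet and Paneth lists, with medians of 3.29, 3.90 and 4.29, were higher in the same pool, and their part here was not tested. The monocyte chemokine Ccl2 stood at 8.57 and 10.04, a ratio of 1.47 with an SD of 0.09 over 10 spots. Ccl8 (2.21), at 9.31 and 11.52, and Ccl7 (1.38), at 7.87 and 9.25, belong to the same chemokine family. The serum amyloid genes Saa2 (3.95), Saa1 (3.18) and Saa3 (1.48) were higher too, the first pair also on the liver array (2.19 and 1.90), and Saa3, the form made by adipocytes and macrophages, not there (-0.61). Nos2, the inducible nitric oxide synthase, stood at 8.98 and 12.10 (3.12). Ptgs2, the inducible cyclooxygenase, stood at 12.41 and 8.73, a ratio of -3.68 with an SD of 0.05 over 10 spots. The sperm and epididymis lists, with medians of -2.19 and -2.37, were lower in the same pool, and their part in this ratio was not tested. Cxcl13 was at -1.14 on the adipose array and at -1.12 in liver. Tnf, Il1b and Il6 passed the background limit only with the high-fat RNA, with bounds of 1.36-fold, 1.41-fold and 1.40-fold, and give no size. Passing in that channel alone was the more common case, with 1680 genes over the array against 273 in the normal-diet channel alone. Cxcl2 and Il10 were below background in both.

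Lymphocyte and antigen presentation genes were mostly small. None of 18 MHC genes was called (median 0.18, H2-Ab1 at 0.26). B and plasma cell genes had a median of 0.39, with Jchain (1.91), the joining chain of secreted IgA and IgM, higher, and Ms4a1 (CD20) at 0.74. Of T and NK cell genes, Gzma (1.17) was higher and Gata3 (-2.53) lower, with Cd3e at -0.44 and Cd3d at 0.33. The dendritic cell genes Ccr7 (1.13) and Irf8 (1.09) were higher, and S100a8 of neutrophils (1.51) was higher while its partner S100a9 was at -0.01.

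Cell division genes were higher in 10 of 37, none was lower and 34 were above 0, against 4.23% of all genes higher. Their median was 0.66, and outside genes of other organs and those brighter in liver 10 of 36 were higher with a median of 0.65. That filter works by list and liver level and left 36 of the 37 genes in place. It therefore does not measure the part of another organ in these ratios. Mki67, which encodes the Ki-67 antigen, stood at 8.95 and 11.02, a ratio of 2.07 with probes at 2.04 and 2.11. Cenpe (1.49), a kinesin of the centromere, Ccnb2 (1.48), a mitotic cyclin, Plk1 (1.27) and Cdc20 (1.26), the activator of the anaphase-promoting complex, followed. Ube2c, the ubiquitin enzyme of that complex, was at 1.15. No replication licensing gene of the Mcm family on the list was called. Mcm5 was at 0.75, Mcm6 at 0.62, Mcm2 at 0.33, Mcm3 at 0.29, Mcm4 at 0.22 and Mcm7 at -0.38. The enterocyte, goblet and Paneth genes that were higher in this pool are of an organ whose crypts divide steadily, and the part of crypt cells was not tested. The crypt stem cell list had a median of 0.11, with 6 of 10 genes above 0 and 4 below. Ascl2 (0.88) and Rnf43 (0.83) were its highest members, Lgr5 was dim (6.83 and 7.19), and Olfm4 has no probe.

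Promoters of mitotic genes often carry CCAAT boxes, bound by NF-Y, and a cell cycle homology region (CHR). The letters CCAAT, on either strand within 250 bases upstream, were found in 23 of 30 cell division promoters (76.7%), against 39.6% of measured genes and 37.5% of all promoters in the table. TTTGAA, on either strand, was found in 9 of 30 (30.0%), against 13.4% and 18.3%. The box was in 8 of 9 promoters of cell division genes at least 2-fold higher and in 15 of 21 of the others. The 3 promoters below, 120 bases upstream of the RefSeq start (GRCm38.p6), are shown because their genes were higher together, with CCAAT and TTTGAA in capitals on either strand. They are Ccnb2 at chr9:70421555-70421674 and Cdc20 at chr4:118437344-118437463, both on the minus strand, and Ube2c at chr2:164769809-164769928 on the plus strand.
Ccnb2: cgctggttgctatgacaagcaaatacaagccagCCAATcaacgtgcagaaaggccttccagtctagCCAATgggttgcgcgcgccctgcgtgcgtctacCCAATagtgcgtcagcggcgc
Cdc20: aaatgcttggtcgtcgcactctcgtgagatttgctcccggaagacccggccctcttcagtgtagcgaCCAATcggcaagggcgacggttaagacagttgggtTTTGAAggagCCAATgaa
Ube2c: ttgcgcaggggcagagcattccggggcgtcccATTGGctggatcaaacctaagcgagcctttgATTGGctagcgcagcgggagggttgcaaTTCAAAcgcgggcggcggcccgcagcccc
Each of the 3 printed stretches holds 3 matches, all of them CCAAT in Ccnb2. The windows of 250 bases hold 4 (Ccnb2), 3 (Cdc20) and 7 (Ube2c). The matches describe the letters and say nothing about which factor was bound in these pools.

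Hypoxia genes had 3 of 24 higher, Pfkfb4 (2.13, at 9.50 and 11.63), Car9 (1.49) and Egln3 (1.04), against 4.23% of all genes. Vegfa was at 0.25 and Slc2a1 at -0.25. Among the hypoxia genes on no organ list and not brighter in liver, 2 of 20 were higher with a median of 0.02. Interferon genes had 1 of 33 higher, Oasl1 (1.41), and a median of 0.23. Clock genes had 1 of 21 lower, Hlf (-1.11), and Dbp was at 0.44 where its ratio was 3.52 in liver. Oxidative phosphorylation (39 genes, median 0.19) and ribosomal protein genes (42 genes, median -0.04) had no called member, nor had immediate early genes (24), heat shock proteins (19) or the unfolded protein response (26). Of the genes often used as references, Rplp0 was at -0.04 and Gapdh at 0.29 over 7 probes, while Actb was at 1.18.

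Hox genes keep a positional code in adult tissue, with higher paralog numbers expressed further towards the tail, and they differ between fat depots. They were looked at after their values were seen. Of 39 on the array 28 were measured. None was at least 2-fold higher and 6 were lower, against 4.23% and 5.13% of all genes. The 6 were Hoxa11 (-1.82), Hoxd11 (-1.42), Hoxb9 (-1.37), Hoxb6 (-1.36), Hoxb8 (-1.31) and Hoxa10 (-1.17). Of the 15 genes with paralog numbers 6 to 11, 14 were below 0 with a median of -0.81, and of the 13 genes numbered 1 to 5, 10 were below 0 with a median of -0.21. Hoxc8 was at -0.08, and Hoxa9 and Hoxa6 at 0.00 each. Hoxa9 (6.62 in both channels) and Hoxa6 (6.75 in both) were dim, so their ratios say little. The high-fat levels of Hoxa11, Hoxd11 and Hoxa10 were also low, at 6.03, 6.05 and 6.39. The lowest levels counted as above background were 6.26 in the normal-diet and 5.66 in the high-fat channel. On the depot lists, the visceral genes Hoxb8 and Wt1 were lower, and none of 7 subcutaneous genes was called. The part of the depot in these ratios was not tested.

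**Figure D5:**
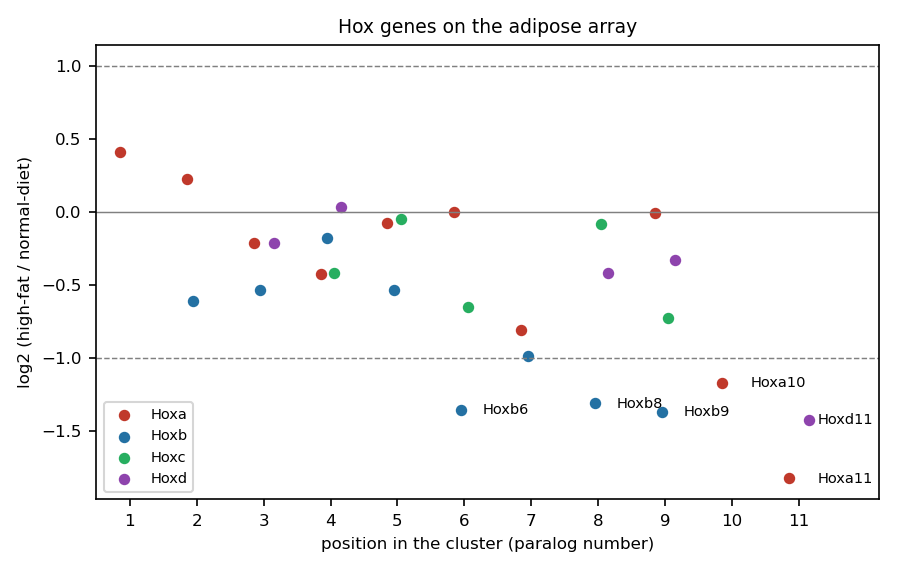
Log2 ratio of high-fat over normal-diet pool (y axis) of 28 Hox genes by paralog number (x axis), coloured by cluster. Dashed lines mark 2-fold. The 6 named genes lie below -1, all with paralog numbers from 6 to 11, and no gene lies above 0.41.

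The genes farthest apart outside every organ list, and not brighter in liver, were of the same organs as those lists. The 12 highest were the defensins Defa40 (5.80), Defa27 (5.65), Defa42 (5.34), Defa32 (5.03), Defa36 (4.66) and Defa38 (4.63), the diamine oxidase Aoc1 (4.96), Clca4a (4.87), Phgr1 (4.58), the guanylin gene Guca2a (4.57), adenosine deaminase (Ada, 4.57) and the brush border myosin Myo1a (4.56). Defensin genes are near copies of each other, so their probes may not be separate observations. The 12 lowest were Spz1 (-4.69), Crisp3 (-4.42), Znrf4 (-4.29), Tex48 (-4.28), Tmco5 (-4.13), Prm3 (-4.05), Serpina1c (-4.02), H1f7, Adam32 (-3.91), Tmem247 (-3.89), Fabp9 (-3.83) and Gsg1 (-3.78). Most of these are expressed in spermatids, and Serpina1c is an antitrypsin gene of liver. In all, 12045 genes remained outside the organ lists and the liver-brighter genes, of which 381 (3.16%) were higher and 499 (4.14%) lower, together 7.31%.

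Of the genes above background in 1 channel only, 1680 were seen in the high-fat and 273 in the normal-diet channel. Their ratios are bounds. The brighter channel was divided by the dim one, or by the dim channel's lowest level counted as above background where that was higher. Of the 1680 genes 69 (4.11%) were at least 2-fold, and of the 273 genes 64 (23.4%). The largest upward bounds were those of Slc15a1, Slc13a1 (7.18-fold), Ms4a18 (6.81-fold), Pdzd3 (6.49-fold) and Anks4b (4.93-fold), genes of gut epithelium in the main. The largest downward bounds were those of Lingo1 (9.49-fold), Fam71f1 (7.17-fold), 1300017J02Rik (6.27-fold), Gm6370 (5.39-fold) and Cyp3a41b (5.09-fold).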

How the data were processed

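The deposited scanner file of the adipose array, and that of the liver array beside it, gives the median pixel intensity of each of 44397 spots and of its local background, not normalized, per the file headers. It also holds the authors' deposited log10 ratio of red over green with its error, after the scanner software's background subtraction and dye normalization. Feature Extraction 11.5.1.1 is named in the file headers and 8.5.1.1 in the submitters' processing notes. Mean signals, which the planned processing assumed, are not among the columns used, so medians were taken.

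With limma 3.58.1 (R 4.3.3), local background was removed by normexp with an offset of 50 after outlying local backgrounds were replaced by the channel's median, and ratios were normalized by loess within the array. Control spots had weight 0, and 213 outlier spots were left out. Levels were set across both arrays with Aquantile. Spots were averaged per probe and probes per gene. Probes were named through transcript accessions matched to RefSeq, which named 27508 of 39429; of 14315 measured genes 11355 had a promoter sequence. The array's annotation uses an older build than the reference, so no gene positions are given beside those of the promoters. The steps were tested on simulated data.

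The text names the 12 highest and 12 lowest genes on no organ list and not brighter in liver. It also names the 4 members of each list farthest from 0, the 5 largest bounds each way and all adipocyte, adipokine and fat-mass genes. The scripts tried 11 alternatives. The array, its 63 gene lists and the rule were chosen with earlier results of these data known. Further members were named after their values were seen, and a few that the rule takes are left out of the text.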

Additional observations from a re-analysis of the deposited data

Results flagged for a closer look

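Of 28 genes at least 2-fold apart on both arrays, 18 lay on the same side (6 higher and 12 lower, among the latter Tnnc2, Myh4, Tnni2 and Tnnt3 of skeletal muscle) and 10 on opposite sides. The difference between the tissues was not tested, since each has 1 array. Lower in adipose tissue and higher in liver were Akr1c6 (-4.26 and 1.22), a hydroxysteroid dehydrogenase of liver, the major urinary proteins Mup2 (-3.47 and 1.26) and Mup19 (-3.15 and 1.12), the apolipoprotein Apoa2 (-3.16 and 1.14) and Gpcpd1 (-1.20 and 1.05), a glycerophosphodiesterase. Mup genes are near copies of each other and their probes may not be separate observations. Higher in adipose tissue and lower in liver were Gm3776 (2.07 and -2.17), the zinc transporter Slc39a4 (2.02 and -1.04), AA986860 (1.61 and -1.03), the carboxylesterase Ces2a (1.18 and -1.18) and Prxl2b (1.09 and -1.11). The hepatocyte list, with a median of -3.66 on the adipose array, stands beside the first group, and its part was not tested.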

How the results depend on the processing

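The count of higher genes was 605 and moved to 4208 with median centring. It was 381 among genes on no organ list and not brighter in liver, which still include unlisted gut genes such as Defa40. The count of lower genes was 735 and moved to 1230 with the scanner software's log ratio. Under the other alternatives both counts stayed within 1.5 times. Gadd45g turned from -1.09 to 0.10 and Pdk4 from -1.08 to 0.015 with median centring, where the median over all genes is 0.69. Relative to that median neither turned, and 9 of 62 list medians did, among them fatty acid oxidation and ribosomal proteins. An offset of 10 in the background correction leaves dim genes less compressed, and 16 of 158 named genes under 2-fold then passed it. With the scanner software's log ratio 30 of them passed, and with median centring 71, while 25 of 150 called genes lost the call with median centring. No paired analysis was possible because each tissue has 1 array and both diets share it.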
